A study of Mus musculus with 18 samples.

Results

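The 9 genes described here encode surface receptors of neutrophils (Csf3r, Fpr1, Fpr2 and Itgam), surface proteins (Mcemp1 and Mmp25), enzymes (Padi4 and Hdc) and a transcription factor of maturing granulocytes (Mxd1). They were chosen by name, with earlier results of these data known. Every non-control probe that the array files assign to one of them, under its current or an older symbol, was taken. This gave 15 of 41174 probes, and all 15 passed the filter on dim probes, so that the 9 genes were among 13357 genes tested. Fpr2 is named Fpr-rs2 and Mcemp1 is named 1810033B17Rik in the files.

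Neutrophils are the short-lived phagocytes of blood. They are made in bone marrow under granulocyte colony-stimulating factor, and on their way from precursor to mature cell they switch off granule protein genes and switch on chemoattractant receptors and integrins. Mature cells follow formyl peptides, which bacteria and damaged mitochondria release, to a site of injury, attach through integrins and release proteases and chromatin nets. In blood, transcripts of these receptors come mostly from neutrophils and to a lesser extent from monocytes.

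The study asks which transcripts in mouse blood mark an exposure to radiation. Male C57BL/6N mice aged 8 to 12 weeks were sham treated (0 Gy, 7 mice) or exposed to gamma rays of a cesium source at 2 Gy (5 mice) or 8 Gy (6 mice). Blood was taken by cardiac puncture 6 h later, RNA was purified, globin RNA was removed from all samples, and Cy3-labelled RNA of each mouse was hybridised to its own Agilent array. RNA came from the RiboPure kit for 5, 4 and 6 mice at 0, 2 and 8 Gy, and from the PAXgene kit for 2, 1 and 0 mice.

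Levels are given as log2 of the processed signal over the 75th percentile of the same array, so that 0 is the brightness of that percentile and 1 unit is a doubling. The 75th percentile itself was 148 to 443 intensity units at 0 Gy, 49.2 to 198 at 2 Gy and 61.3 to 247 at 8 Gy, and 19265 to 24448, 15456 to 19518 and 16941 to 22782 probes were well above background. Irradiated arrays thus tended to be dimmer. Arrays 0 Gy replicate 4 and 2 Gy replicate 3 stood apart over all genes, with a median correlation with the other arrays of 0.832 and 0.845. The array labelled 0 Gy replicate 5 had the highest summed level of 9 neutrophil markers among the 0 Gy arrays, 2451 times the 75th percentile against 470 to 1000 times in the other 6, and the lowest summed level of 6 B cell markers, 34.7 times against 113 to 260 times. It was kept at 0 Gy as labelled, and results that rest on it are given with and without it.

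At 8 Gy, 8 of the 9 genes rose against 0 Gy: Csf3r, Fpr1, Fpr2, Mcemp1, Mmp25, Padi4, Hdc and Mxd1, by 2.55-fold (Padi4) to 6.59-fold (Fpr2). A gene was called where the adjusted p of limma, a linear model with dose and kit as terms and Benjamini-Hochberg adjustment over 13357 genes, was under 0.05. Of all genes, 7.25% were called higher at 8 Gy and 11.9% in either direction. The median log2 change of the 9 genes was 2.26, beside 0.06 over all genes tested. As the 9 genes were chosen with earlier results of these data known, these values are a description and no independent support. Itgam was not called. At 2 Gy none of the 9 genes was called against 0 Gy, where 0.0524% of all genes were. Levels are relative to the other probes of the same array. In bulk blood, more cells of a type, more RNA per cell and less RNA from other cells thus cannot be told apart.

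**Figure D1:**
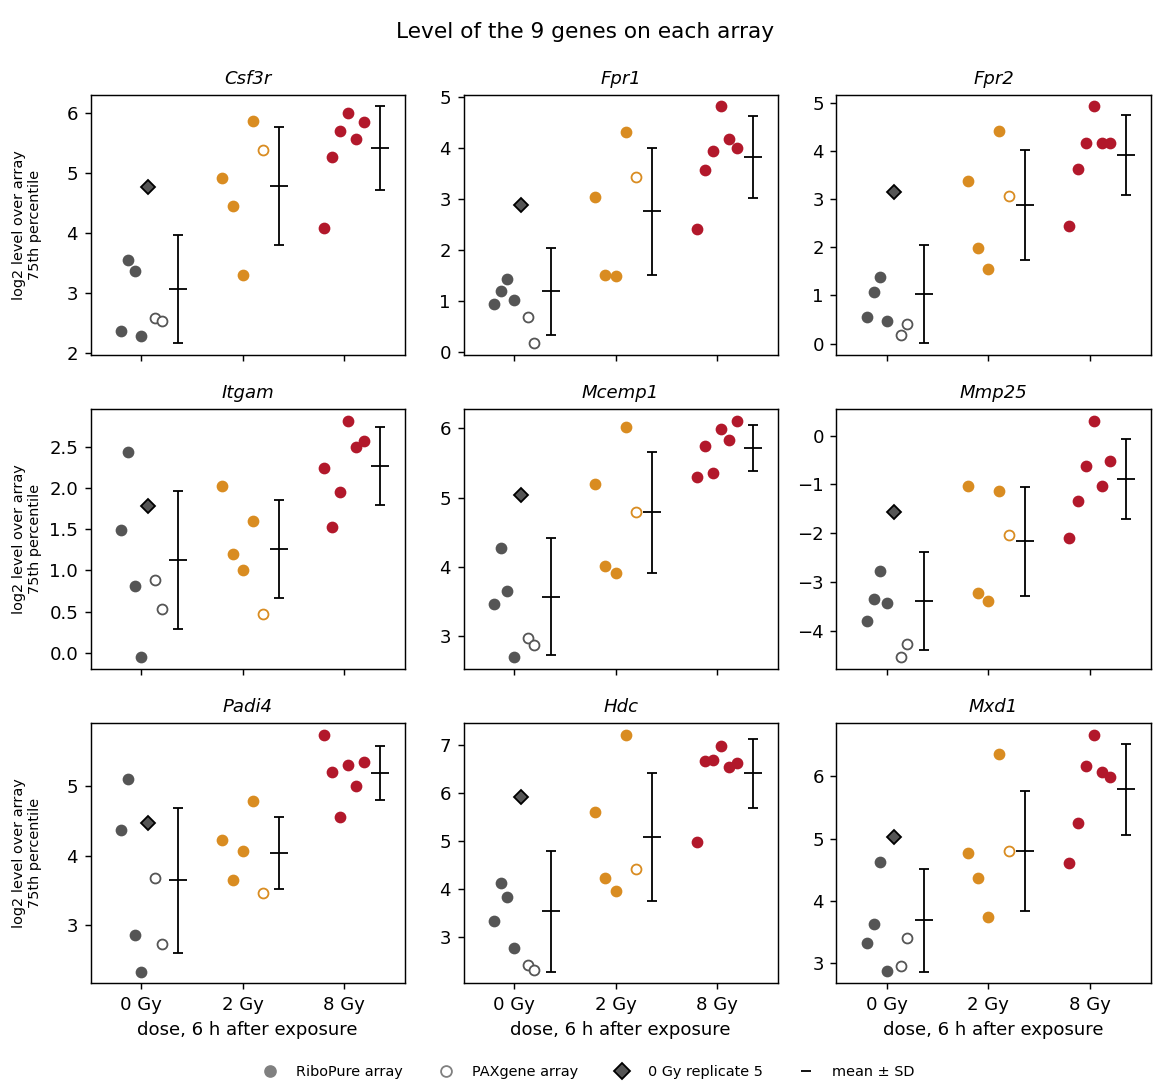
Level of each of the 9 genes (log2 over the array's 75th percentile) on 7 arrays at 0 Gy, 5 at 2 Gy and 6 at 8 Gy, each point 1 mouse, open points PAXgene arrays, the diamond 0 Gy replicate 5, and the bar the mean ± SD. The Mcemp1 points at 8 Gy, 5.29 to 6.11, all lie above the 0 Gy points, which reach 5.04, while the other 8 genes overlap between these doses.

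Csf3r, the receptor for granulocyte colony-stimulating factor, was the first of the receptors. Its level was 2.28 to 4.77 at 0 Gy (median 2.59, n = 7), then 4.92, 4.45, 3.30, 5.86 and 5.37 at 2 Gy, and 4.09 to 5.99 at 8 Gy (median 5.63, n = 6). The 8 Gy arrays stood above the 0 Gy arrays with the exception of 0 Gy replicate 5, which was higher than 8 Gy replicate 1. The model gave a log2 change of 2.30 ± 0.49 (SE) at 8 Gy, or 4.91-fold, with an adjusted p of 0.0147 in limma. At 2 Gy it was 1.70 ± 0.49, with an adjusted p of 0.108 in limma.

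Fpr1 and Fpr2 are the formyl peptide receptors of mouse phagocytes, and Fpr2 also binds annexin A1 and serum amyloid A. They lie close together on mouse chromosome 17 and are related in sequence, which makes the probes that read them worth showing. The probe of Fpr1 lies at chr17:16047726-16047785 (minus strand), the main probe of Fpr2 at chr17:16064657-16064716 and its second probe at chr17:16064046-16064105 (both plus strand), on build mm7 as the files give it. All are printed 5′ to 3′ as in the files.
Fpr1 probe: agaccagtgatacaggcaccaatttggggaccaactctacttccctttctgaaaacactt
Fpr2 main probe: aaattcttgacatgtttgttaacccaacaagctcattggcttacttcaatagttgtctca
Fpr2 second probe: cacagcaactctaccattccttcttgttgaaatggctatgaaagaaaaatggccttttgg
The second probe carries accessions of both Fpr2 and Fpr3, so what it reads cannot be assigned to one of them. The main probe carries Fpr2 alone.

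Fpr1 was at 0.17 to 2.88 at 0 Gy (median 1.02), at 3.03, 1.51, 1.48, 4.31 and 3.43 at 2 Gy, and at 2.42 to 4.81 at 8 Gy (median 3.97). Fpr2 was at 0.18 to 3.15 at 0 Gy (median 0.54), at 3.37, 1.98, 1.55, 4.42 and 3.06 at 2 Gy, and at 2.43 to 4.93 at 8 Gy (median 4.16). For both receptors 0 Gy replicate 5 was the one array at 0 Gy within the range of the 8 Gy arrays. Fpr2 had the largest log2 change of the 9 genes at 8 Gy, 2.72 ± 0.55 (95% interval 1.56 to 3.88; adjusted p = 0.0118, limma), and Fpr1 changed by 2.52 ± 0.53 (adjusted p = 0.0147, limma). The second Fpr2 probe gave 2.63 ± 0.50, with an adjusted p of 0.00957 in a limma fit over 22035 probes, where 5.49% of the probes were higher at 8 Gy. At 2 Gy the changes were 1.53 ± 0.53 for Fpr1 and 1.80 ± 0.55 for Fpr2, with adjusted p of 0.155 and 0.125 in limma.

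Itgam, the alpha chain of the integrin Mac-1 (CD11b), is carried by neutrophils, monocytes and NK cells. It was at -0.05 to 2.44 at 0 Gy (median 0.88), at 2.03, 1.20, 1.00, 1.60 and 0.47 at 2 Gy, and at 1.52 to 2.82 at 8 Gy (median 2.37). The doses overlapped, and the highest array at 0 Gy was replicate 2, not replicate 5. The log2 change at 8 Gy was 0.93 ± 0.35 (95% interval 0.19 to 1.68), with an unadjusted p of 0.0171 and an adjusted p of 0.0828 in limma, so Itgam did not pass. At 2 Gy it was 0.07 ± 0.35 (interval -0.67 to 0.82; adjusted p = 0.929, limma). Its second probe, which unlike the main probe has a RefSeq match, gave 0.61 ± 0.38 at 8 Gy and -0.22 ± 0.38 at 2 Gy.

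Of the surface proteins, Mcemp1 is a single-pass membrane protein first described in mast cells and also made by neutrophils and monocytes. Its level was 2.70 to 5.04 at 0 Gy (median 3.47), 5.20, 4.02, 3.91, 6.02 and 4.79 at 2 Gy, and 5.29 to 6.11 at 8 Gy (median 5.79). It was the one member whose 8 Gy arrays were all above all 0 Gy arrays, which held for 0.876% of all genes, and its spread at 8 Gy was the smallest of the 9 (SD 0.33, n = 6). The log2 change at 8 Gy was 1.99 ± 0.40 (adjusted p = 0.0115, limma), and its second probe gave 1.96 ± 0.44. The change at 2 Gy was 1.17 ± 0.40 (adjusted p = 0.151, limma).

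Mmp25, a membrane-anchored matrix metalloproteinase of neutrophils also called leukolysin, gave the dimmest signals. It was at -4.54 to -1.57 at 0 Gy (median -3.43), at -1.02, -3.22, -3.38, -1.13 and -2.04 at 2 Gy, and at -2.11 to 0.31 at 8 Gy (median -0.82). Its probe was well above background on 4 of 7, 3 of 5 and 6 of 6 arrays at 0, 2 and 8 Gy, so the low values are close to what the array could measure. The log2 change was 2.26 ± 0.52 at 8 Gy (adjusted p = 0.0199, limma) and 1.16 ± 0.52 at 2 Gy (adjusted p = 0.228, limma).

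Padi4, the deiminase that turns arginines of histones into citrulline and takes part in the release of chromatin nets, moved least among the 8 genes called. Its level was 2.34 to 5.11 at 0 Gy (median 3.68), 4.22, 3.64, 4.07, 4.79 and 3.46 at 2 Gy, and 4.55 to 5.73 at 8 Gy (median 5.25). The 0 Gy and 8 Gy arrays overlapped through 0 Gy replicate 2. The log2 change at 8 Gy was 1.35 ± 0.40 (interval 0.50 to 2.20; adjusted p = 0.0434, limma). This call was lost in 13 of the 18 fits that left out 1 array (adjusted p of 0.0236 to 0.0864 over the 18, limma). At 2 Gy the change was 0.33 ± 0.40 (interval -0.52 to 1.18; adjusted p = 0.658, limma). The other 2 probes of Padi4 gave 1.94 ± 0.44 (adjusted p = 0.0184) and 1.09 ± 0.47 (adjusted p = 0.128) at 8 Gy in the limma fit over probes. At 2 Gy these probes gave 0.72 ± 0.44 and -0.10 ± 0.47.

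Hdc is the histidine decarboxylase that makes histamine. In mice it is known from basophils and mast cells and also from immature myeloid cells and neutrophils. It was at 2.31 to 5.91 at 0 Gy (median 3.33), at 5.59, 4.23, 3.95, 7.20 and 4.41 at 2 Gy, and at 4.98 to 6.96 at 8 Gy (median 6.63). The highest array at 0 Gy was replicate 5 and the lowest at 8 Gy was replicate 1, and these 2 arrays made the doses overlap. The log2 change was 2.49 ± 0.57 at 8 Gy (5.63-fold; adjusted p = 0.0194, limma) and 1.44 ± 0.57 at 2 Gy (adjusted p = 0.186, limma). Of 5 measured markers of basophils and mast cells none rose at 8 Gy and 1 fell, and their summed level was 2.45 to 6.16 times the 75th percentile at 0 Gy, 2.64 to 8.01 at 2 Gy and 4.95 to 13.6 at 8 Gy.

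Mxd1, a repressor that pairs with Max, opposes Myc and is switched on as granulocytes mature, was the transcription factor among the 9. It was at 2.87 to 5.02 at 0 Gy (median 3.41), at 4.77, 4.37, 3.74, 6.36 and 4.80 at 2 Gy, and at 4.61 to 6.66 at 8 Gy (median 6.02). The 8 Gy arrays overlapped with 0 Gy replicates 5 and 3. The log2 change was 1.97 ± 0.47 at 8 Gy (3.91-fold; adjusted p = 0.0218, limma) and 1.08 ± 0.47 at 2 Gy (adjusted p = 0.215, limma). Its second probe, which unlike the main probe has a RefSeq match, gave 1.42 ± 0.38 at 8 Gy (adjusted p = 0.0322 in the limma fit over probes).

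**Figure D2:**
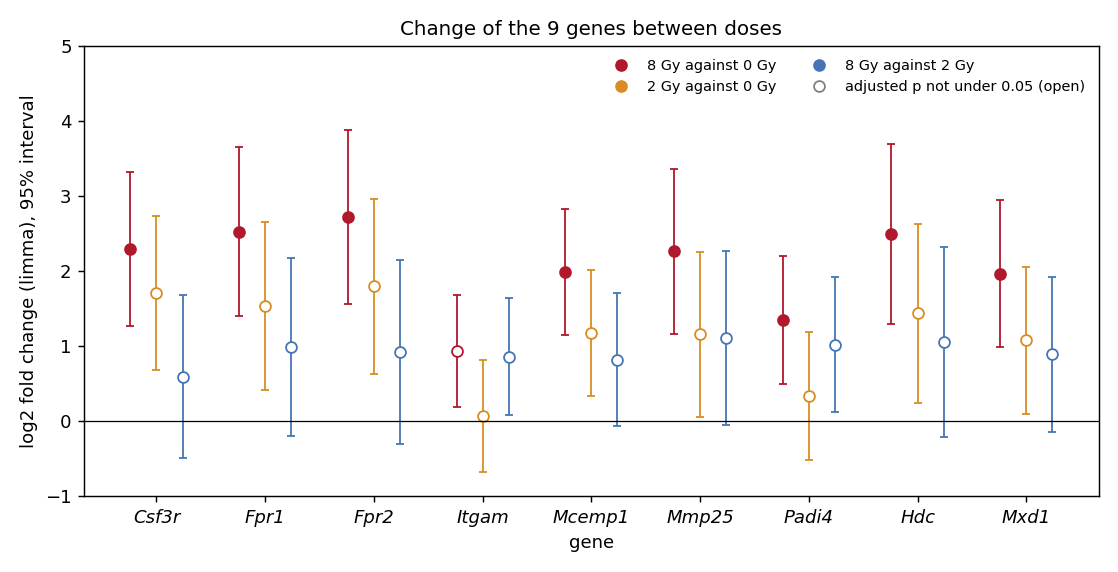
Log2 fold change of each gene in limma for 8 Gy against 0 Gy, 2 Gy against 0 Gy and 8 Gy against 2 Gy, with 95% intervals, filled where the adjusted p is under 0.05. The 8 Gy changes against 0 Gy run from 0.93 (Itgam) to 2.72 (Fpr2), and Itgam and Padi4 have the lowest estimates at both doses.

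At 2 Gy the 9 genes had a median log2 change of 1.17, beside 0.04 over all genes. All 9 estimates by the main probes were above 0, while a second probe of Itgam gave -0.22 and another of Padi4 -0.10. By the main probes, 7 of 9 genes had an unadjusted limma p under 0.05, as did 20.3% of all genes. The exceptions were Itgam and Padi4. The count of calls at 2 Gy depended on single arrays. Without 0 Gy replicate 5, 5 of the 9 genes were called higher: Csf3r (2.01), Fpr1 (1.83), Fpr2 (2.16), Mcemp1 (1.41) and Hdc (1.81 on the log2 scale), with adjusted p of 0.0185 to 0.0454 in limma, and 3.46% of all genes were called higher in that fit. Leaving out 2 Gy replicate 3 instead gave 1 call, Csf3r (2.07, adjusted p = 0.0497, limma), with 0.831% of all genes called higher. No member had all 2 Gy arrays above all 0 Gy arrays, as 0.165% of all genes did. Fpr1 and Fpr2 had so without 0 Gy replicate 5, as 1.8% of all genes did.

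Without 0 Gy replicate 5 the same 8 genes were called at 8 Gy, with log2 changes of 1.49 (Padi4) to 3.15 (Fpr2) and 14.5% of all genes called higher, and Itgam was at 1.03 (adjusted p = 0.0596, limma). All 8 Gy arrays then lay above all 0 Gy arrays for 6 of 9 genes, Csf3r, Fpr1, Fpr2, Mcemp1, Mmp25 and Hdc, and for 5.54% of all genes. Without 0 Gy replicate 4 and 2 Gy replicate 3 together, 7 of 9 were called and Padi4 was not (1.02, adjusted p = 0.0665, limma), with 6.78% of all genes called higher. The calls were fewest without 0 Gy replicate 1, when Csf3r, Fpr1, Fpr2 and Mcemp1 were called, with 1.18% of all genes called higher. Without 8 Gy replicate 4 there were 5, with 1.54% of all genes.

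No member was called between 8 Gy and 2 Gy, where 0% of all genes were called and 3.18% had an unadjusted p under 0.05. The log2 changes ran from 0.59 (Csf3r) to 1.10 (Mmp25), with a median of 0.92 beside 0.05 over all genes. The smallest unadjusted limma p values belonged to Padi4 (1.02 ± 0.43, with 0.0287) and Itgam (0.86 ± 0.37, with 0.0334), and the adjusted p of every member was 0.928. No member had all 8 Gy arrays above all 2 Gy arrays, as 0.0674% of all genes did. The 3 comparisons share arrays, so their values for a gene are not independent of each other.

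The genes also differed in how they varied between mice of the same dose. After each gene's dose mean was taken from its values, the 21 pairs among Csf3r, Fpr1, Fpr2, Mcemp1, Mmp25, Hdc and Mxd1 correlated over 18 arrays with Pearson's r of 0.794 to 0.961 (median 0.877). Itgam and Padi4 correlated with each other at 0.824 (0.671 without the 2 arrays farthest out, 0 Gy replicates 2 and 4). The 14 pairs of Itgam or Padi4 with one of the other 7 genes correlated at 0.192 to 0.663 (median 0.417). This division was seen in the values and is a description with no test. All pairs share the arrays and their scaling.

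The genes closest to the mean of the 9 by the same measure were Cd33, a lectin of myeloid cells (r = 0.969), Purg (0.964), Clec5a, an activating lectin receptor of myeloid cells (0.962), Pram1 (0.96), Cers6 (0.959) and Hcar2, the receptor for niacin and ketone bodies (0.954). Their log2 changes at 8 Gy ran from 1.19 (Purg) to 2.79 (Hcar2). Among single genes, Fpr2 was closest to Dhrs9 (0.982), Fpr1 to Il1r2, the decoy receptor for interleukin-1 (0.979), Csf3r to Pfkfb4 (0.966), Hdc to Rab11fip1 (0.965), Mmp25 to Lcn2, a siderophore-binding protein of neutrophil granules (0.949), Mxd1 to A530064D06Rik (0.947) and Mcemp1 to Bst1 (0.938). Padi4 was closest to Emilin2 (0.932) and Itgam to App (0.891). Emilin2 and App were not called at 8 Gy (0.67 and 0.79 on the log2 scale, adjusted p of 0.221 and 0.132 in limma).

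Markers of neutrophils outside the 9 genes moved with them. All 9 measured markers (S100a8, S100a9, Retnlg, Cxcr2, Mmp8, Mmp9, Clec4d, Trem1 and Il1r2) rose at 8 Gy, with a median log2 change of 2.38. Of all genes, 7.25% were called higher. All 9 rose again without 0 Gy replicate 5, beside 14.5% of all genes. The marker lists were chosen with earlier results of these data known, so these counts are a description and no independent support. Il1r2 is also the gene found closest to Fpr1. The summed level of the 9 markers was 470 to 2451 times the 75th percentile at 0 Gy, 1117 to 5153 at 2 Gy and 1502 to 3823 at 8 Gy. Over the 18 arrays, deviations from the dose means of the 9 genes and of the 9 markers correlated with r = 0.939 and Spearman's rho = 0.886 (r = 0.873 without 0 Gy replicate 5 and 2 Gy replicate 4). The mean change of the 9 genes minus that of the markers was -0.38 to 0.64 on the 0 Gy arrays (median -0.11), -1.01 to -0.10 on the 2 Gy arrays (median -0.16) and -0.68 to 0.08 on the 8 Gy arrays (median -0.46). Changes were taken from the 0 Gy mean, so the differences on the 0 Gy arrays balance out by construction and show only a spread. On most irradiated arrays the 9 genes lay below the markers, with the lowest median at 8 Gy. What the number of neutrophils, or less RNA from other cells, contributed to the change of the 9 genes was not tested.

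**Figure D3:**
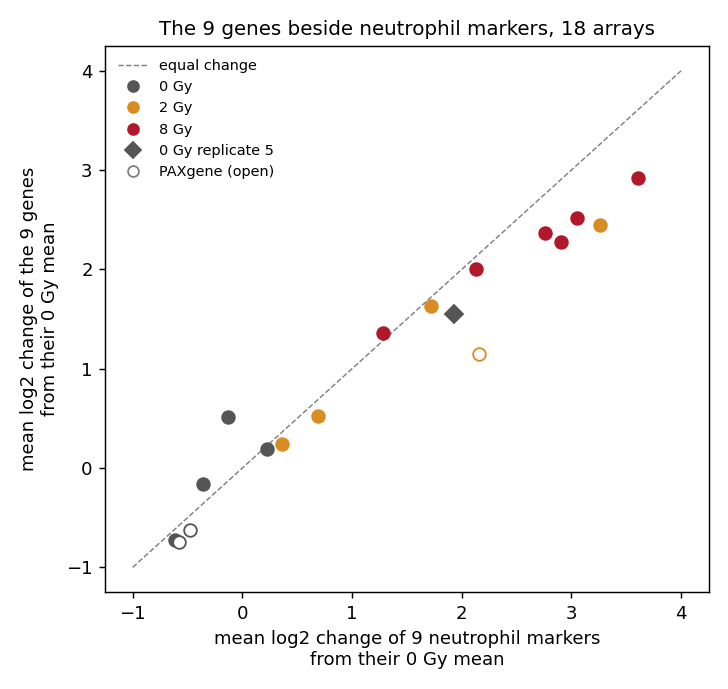
Mean log2 change from the 0 Gy mean of the 9 genes (vertical) and of 9 neutrophil markers (horizontal) on each of 18 arrays, with the dashed line at equal change, open points PAXgene arrays and the diamond 0 Gy replicate 5. The 0 Gy diamond, at 1.93 for the markers and 1.55 for the 9 genes, lies among the irradiated arrays.

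Among markers of other cells, all 6 of B cells fell at 8 Gy (median log2 change -3.18), and their summed level was 34.7 to 260 times the 75th percentile at 0 Gy, 6.75 to 39.9 at 2 Gy and 5.10 to 66.6 at 8 Gy. Of 7 measured genes of neutrophil precursors, such as Mpo and Ctsg, none rose or fell. The summed level of the precursor genes was 22.4 to 102 times, 22.2 to 131 times and 49.99 to 116 times the 75th percentile at 0, 2 and 8 Gy. None of 7 monocyte, 7 NK cell, 7 T cell and 5 erythroid markers was called, 1 of 6 platelet markers rose and 1 of 3 eosinophil markers fell. When 0 Gy replicate 5 was left out, 14.5% of all genes were called higher at 8 Gy. In that fit all 6 platelet markers, 1 of 7 precursor genes, 1 of 7 NK cell markers and 1 of 3 eosinophil markers rose as well. No list had a called gene at 2 Gy in limma over all 18 arrays. Without 0 Gy replicate 5, 6 of 9 neutrophil markers and 2 of 6 platelet markers rose there, and 6 of 6 B cell, 1 of 5 basophil and mast cell and 1 of 3 eosinophil markers fell, with 6.4% of all genes called in either direction. Among the lists by role described next, 3 chemotaxis and adhesion receptors and 1 gene each of the colony-stimulating factor, metalloproteinase, histamine and granulocyte factor lists rose in that fit.

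Genes that act with the members were read from lists by role, with the same limma calls at 8 Gy. At that dose 7.25% of all genes were called higher and 11.9% in either direction. Next to Csf3r, 6 of 14 measured genes of colony-stimulating factor signalling rose and none fell (median 0.87). The 3 with the smallest p were Socs3, a feedback inhibitor of cytokine receptors (2.28 ± 0.45, adjusted p = 0.0106), Csf2ra, a chain of the receptor for granulocyte-macrophage colony-stimulating factor (1.15 ± 0.25, adjusted p = 0.0154), and Csf2rb2, a chain of the mouse interleukin-3 receptor (1.38 ± 0.34, adjusted p = 0.0254). Next to the formyl peptide receptors, none of 6 measured relatives, ligands and G proteins was called (median 0.88). Gnai2, an inhibitory G protein, was at 0.90 ± 0.33 (adjusted p = 0.0773), the ligand gene Anxa1 at 1.09 ± 0.44 (adjusted p = 0.0967) and Gnai3 at 0.58 ± 0.24 (adjusted p = 0.110), all in limma.

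Next to Itgam, 5 of 13 chemotaxis and adhesion receptors rose and none fell (median 0.82), beside 7.25% of all genes called higher. Without 0 Gy replicate 5, 9 rose, beside 14.5% of all genes. The list shares Cxcr2 with the neutrophil markers. C5ar1, the receptor for complement C5a, changed by 2.38 ± 0.46 (adjusted p = 0.00984, limma). Its probe was well above background on 2 of 7, 2 of 5 and 6 of 6 arrays at 0, 2 and 8 Gy. C5ar1 thus met the filter of at least 5 arrays only through the 8 Gy arrays. Its call is a description and no independent test. Cd177, a glycoprotein of the neutrophil surface, changed by 1.55 ± 0.37 (adjusted p = 0.0218, limma), and Itgb2l, a beta-2-like integrin chain, by 3.16 ± 0.81 (adjusted p = 0.0276, limma).

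The lists next to the surface protease and the enzymes held 1 call each at 8 Gy, where 7.25% of all genes were called higher. Of 7 membrane-type metalloproteinases and inhibitors, Timp3, a tissue inhibitor of metalloproteinases, rose (1.29 ± 0.32, adjusted p = 0.0262, limma), while Timp1 (1.04 ± 0.35) and Mmp24 (1.25 ± 0.59) did not pass. Of 3 other peptidylarginine deiminases, Padi3 rose (0.90 ± 0.29, adjusted p = 0.0493, limma), with Padi2 at 0.32 ± 0.28 and Padi1 at 0.67 ± 0.64. Padi3 was not called without 0 Gy replicate 4 and 2 Gy replicate 3. Of 4 genes for histamine receptors, transport and breakdown, Hnmt, which methylates histamine, rose (1.23 ± 0.35, adjusted p = 0.0398, limma), with the vesicle transporter Slc18a2 at 1.03 ± 0.36 and the receptor Hrh2 at 0.75 ± 0.50.

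Next to Mxd1, 1 of 10 genes of the Myc-Max-Mxd network rose, a count near the 7.25% of all genes called higher. This was Max, the shared partner of Myc and Mxd1 (0.98 ± 0.30, adjusted p = 0.0465, limma). Mxi1 was at 1.15 ± 0.41 and Myc at -1.32 ± 0.50, with adjusted p of 0.0712 and 0.0841 in limma. The list's median was -0.02. Of 9 granulocyte transcription factors and regulators of them, 4 rose and 1 fell (median 0.41). Trib1, a pseudokinase that promotes the breakdown of C/EBP alpha (1.45 ± 0.32, adjusted p = 0.0156) and Cebpb, a factor of granulopoiesis under stress (1.08 ± 0.24, adjusted p = 0.0187), rose, and Irf8, a factor of monocyte and B cell development, fell by 1.18 ± 0.26 on the log2 scale (adjusted p = 0.0156, limma). In the fit without 0 Gy replicate 5, 14.5% of all genes were called higher. There, 2 genes of the Myc-Max-Mxd network, 2 of the metalloproteinase list, 2 of the histamine list and 1 of the formyl peptide receptor list rose. Without 0 Gy replicate 4 and 2 Gy replicate 3, 2 of the metalloproteinase list rose and 2 of 7 T cell markers fell. In that fit 13.9% of all genes were called in either direction.

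**Figure D4:**
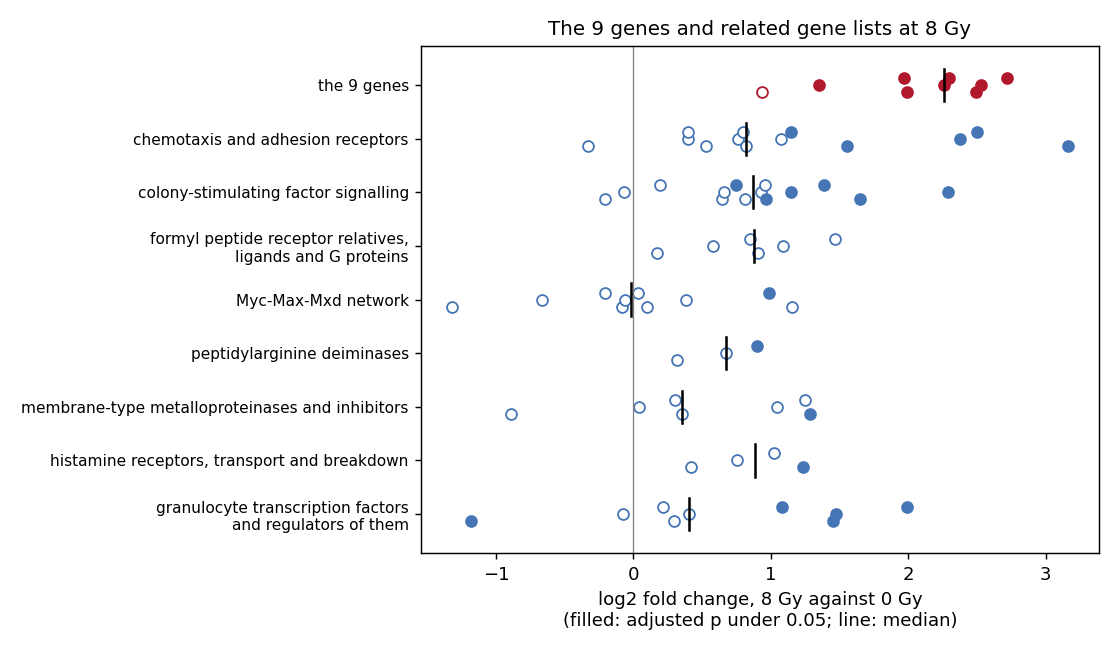
Log2 fold change at 8 Gy against 0 Gy of the 9 genes and of the measured genes of 8 lists, 1 point per gene, filled where the adjusted p in limma is under 0.05, with the list's median as a line. The 9 genes have a median of 2.26, and the medians of the lists run from -0.02 (Myc-Max-Mxd network) to 0.89 (histamine genes).

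The upstream sequence of the members was read for motifs of factors that act in granulocytes. The 250 bases before the annotated start, from the RefSeq table on GRCm38.p6, were available for all 9 genes and were searched on both strands. The core motif of PU.1 (encoded by Spi1), GAGGAA, was in 4 of 9 windows (Csf3r, Fpr2, Itgam and Mmp25), as in 23.3% of 32851 windows of this length. The C/EBP motif TTGCNNAA was in 0 of 9, and in 9.6% of all. The windows of Csf3r, which was called at 8 Gy, and of Itgam, which was not, are shown with the motif in capitals, at bases -86 in Csf3r and -84 and -15 (minus strand, so TTCCTC) in Itgam, counted from the start. Both are plus strand, 5′ to 3′, at chr4:126024409-126024658 and chr7:128062390-128062639.
Csf3r: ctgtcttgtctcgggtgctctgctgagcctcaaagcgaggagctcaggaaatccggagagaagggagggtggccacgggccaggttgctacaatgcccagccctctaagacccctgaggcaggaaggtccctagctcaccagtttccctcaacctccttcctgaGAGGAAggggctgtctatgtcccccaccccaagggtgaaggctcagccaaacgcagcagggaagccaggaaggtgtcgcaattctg
Itgam: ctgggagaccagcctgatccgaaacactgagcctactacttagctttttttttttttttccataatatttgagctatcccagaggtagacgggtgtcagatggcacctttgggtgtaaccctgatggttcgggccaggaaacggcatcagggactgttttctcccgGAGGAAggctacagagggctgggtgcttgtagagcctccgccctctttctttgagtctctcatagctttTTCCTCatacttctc
A match describes the letters only, and no binding was measured here.

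The calls at 8 Gy depended on how slide, scan day and array brightness entered the fit. The doses were spread unevenly over 8 slides and 7 scan days. With slide or scan day as a random block, 7 of 9 genes were called in each fit and Padi4 was not (adjusted p of 0.0804 and 0.0687 in limma), while 2.25% and 3.08% of all genes were called higher. With slide or scan day as a fixed term in place of the kit, a choice made after seeing the data, none of the 9 and none of all genes was called in limma, while 1 and 6 of the 9 had an unadjusted p under 0.05, as did 8.82% and 18.6% of all genes. The estimates with the fixed slide term ran from 0.26 (Padi4) to 2.26 (Fpr2). With the log2 75th percentile of each array as a term, none of the 9 and no gene of the lists was called either, nor any of all genes. All 9 had an unadjusted p under 0.05, as did 13.8% of all genes, and the estimates ran from 1.18 (Itgam) to 2.24 (Fpr2).

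Within slide 3, scanned on 1 day with 2 arrays at 8 Gy and 1 at 0 Gy, all 9 genes were higher at 8 Gy, by 0.56 (Padi4) to 4.01 (Fpr2) on the log2 scale, with a median over all genes of 0.11. Within scan day 7, with 1 array each, the differences were 0.69 (Hdc) to 1.12 (Fpr1), and the 0 Gy array was replicate 5. For 2 Gy against 0 Gy, slides 1 and 8 had 7 of the 9 genes higher at 2 Gy and Itgam (-0.83 and -0.41) and Padi4 (-1.17 and -0.21) lower. On slide 5, with 2 Gy replicate 3 and 0 Gy replicate 5, all 9 were lower, by -0.40 (Padi4) to -1.96 (Hdc), with a median over all genes of -0.39. Within slide 4, with 3 arrays at 8 Gy and 1 at 2 Gy, 7 genes were lower at 8 Gy, to -1.15 (Hdc), and Itgam (0.49) and Padi4 (0.52) were higher. Within scan day 7, with 8 Gy replicate 6 and 2 Gy replicate 3, all 9 were higher at 8 Gy, by 1.28 (Padi4) to 2.86 (Mmp25), with a median over all genes of 0.34. These within-batch values have no test.

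**Figure D5:**
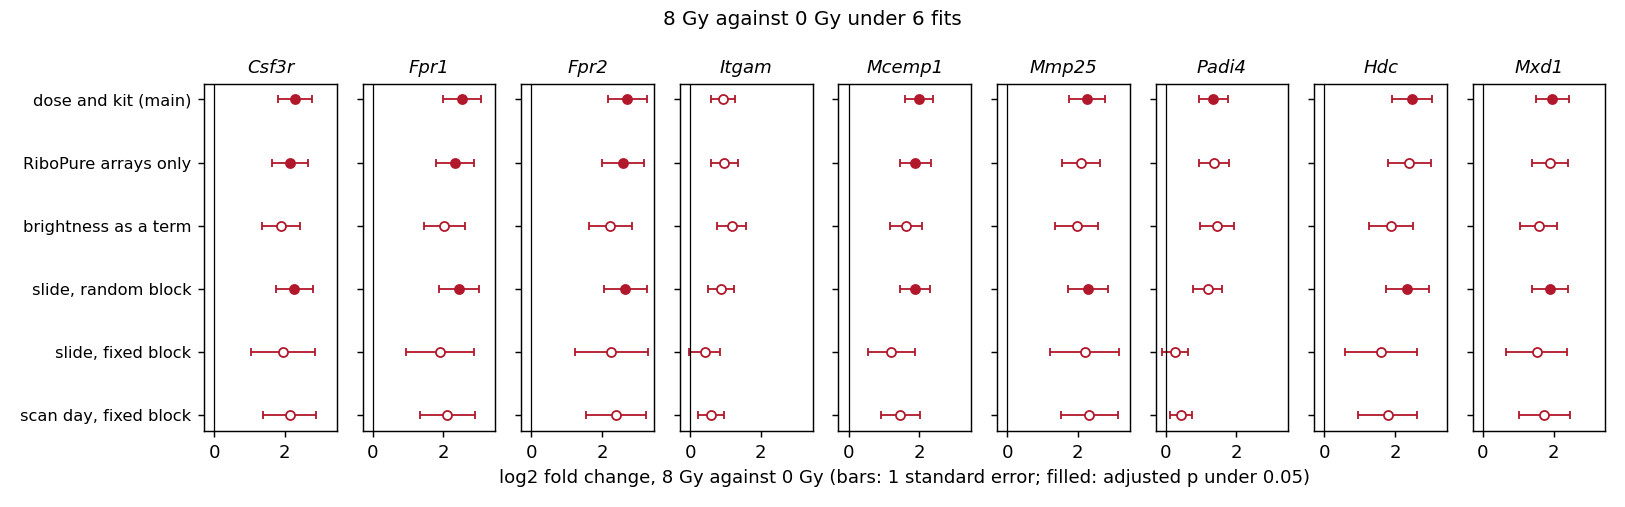
Log2 fold change at 8 Gy against 0 Gy of each gene under 6 fits, with 1 standard error, filled where the adjusted p in limma is under 0.05. All estimates are above 0, and no point is filled with brightness as a term or with slide or scan day as a fixed block.

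No member was called between the extraction kits. With PAXgene RNA (3 arrays) against RiboPure RNA (15 arrays), 0 of 9 genes were called, against 3.68% of all genes, and the estimates ran from -1.34 ± 0.65 (Hdc, adjusted p = 0.260, limma) to -0.18 (Csf3r). No 8 Gy sample came from the PAXgene kit. Among RiboPure arrays alone, 4 of the 9 genes were called at 8 Gy, Csf3r, Fpr1, Fpr2 and Mcemp1, with 1.05% of all genes called higher.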

How the data were processed

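Whole blood RNA of 18 mice was measured on 1-colour Agilent arrays, with 1 array per mouse, and the design text calls them distinct biological samples. The submitters' processing notes name Agilent Feature Extraction 9.5.3.1 and limma, the second without a role. The deposited scanner files hold processed signals, an intensity with background subtraction and detrending done per the file headers. The deposited series table holds an intensity on a linear scale that correlated with the processed signal (r from 0.988 to 1.000 within an array) and was used as an alternative. Its normalization steps are not given in the sources used here.

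The log2 processed signal, as a mean over spots of the same probe, was set against the 75th percentile of non-control spots on its array, without 45 values marked as outliers. A probe entered the tests if at least 5 of 18 arrays had it well above background (22035 did). The brightest probe by its mean over 18 arrays stood for its gene. Symbols were updated through RefSeq accessions (22951 probes) or symbols. The main probes of Itgam and Mxd1 keep the name in the files, with no RefSeq match. Probe positions are on mm7 and could not be checked against a genome.

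Dose and kit were the terms of 1 model over all 18 arrays in limma 3.58.1 (R 4.3.3, with statmod 1.5.0 and version 1.17.8 of data.table), with 2-sided tests, and it was tested on simulated data. Figures were drawn with matplotlib 3.10.9. Errors of log2 changes are standard errors. The 9 genes are all named, with up to 3 genes of the smallest p from each list at 8 Gy and the genes most alike over arrays, 6 to the members' mean and 1 to each member. Cebpb is the third by p of its list. Members and lists were chosen with earlier results of these data known. Alternatives covered background correction, scaling, the deposited table, the filter, the kit, slide, scan day, brightness, probe choice, array weights, the replicate block and each array left out.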

Additional observations from a re-analysis of the deposited data

Results flagged for a closer look

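In the 27 groups of arrays tested (9 genes at 3 doses), 2 held an array whose gap to its neighbour was large for the group's range. Chance gives about 1 in 20 groups. The groups share arrays and are not independent, so the count of 2 is a description. Fpr2 on 0 Gy replicate 5 was at 3.15, against 1.38 for the next array and 0.18 for the lowest at 0 Gy. Hdc on 8 Gy replicate 1 was at 4.98, against 6.53 for the next array and 6.96 for the highest at 8 Gy. The 0 Gy array was also the highest of its dose for Csf3r, Fpr1, Mcemp1, Mmp25, Hdc and Mxd1. What sets these arrays apart was not tested.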

How the results depend on the processing

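The estimates of all 9 genes at 8 Gy against 0 Gy were above 0 under every alternative run; the lowest were 0.26 (Padi4) and 0.42 (Itgam). Of 37 alternatives, Fpr1 and Fpr2 were called in 34, Csf3r and Mcemp1 in 33, Hdc in 31, Mxd1 in 27, Padi4 in 9 and Itgam in 1 (no kit term, 1.14), and Mmp25 in 29 of 36. With each array left out in turn, Padi4 was called in 5 of 18 fits (without 0 Gy replicates 2 or 5, 2 Gy replicates 3 or 4, or 8 Gy replicate 1). Mxd1 was not called without 0 Gy replicates 1 or 2 or 8 Gy replicates 4 or 6, Mmp25 without 0 Gy replicate 1 or 8 Gy replicate 4, and Hdc without 0 Gy replicate 1.

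The number of the 9 genes called at 8 Gy was 8, and 4 for RiboPure arrays, 0 with brightness, slide or scan day as fixed terms, and 4 to 8 with 1 array left out. The genes called over all numbered 1593, and 456 with the array median, 566 with no filter, 582 and 784 with slide and scan day as random blocks, 267 for RiboPure arrays, 775 with the arrays of 2 doses, 4747 with array weights, 0 with brightness or fixed slide or scan day, and 263 (without 0 Gy replicate 1) to 2980 (without 0 Gy replicate 5). Higher calls made up 60.8% of these, but 46% after quantile normalization, 45.3% after normexp and 45.6% in the deposited table. Without a filter the median of all genes was 0.27 and not 0.06.

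At 2 Gy the number of members called was 0, and 7 with array weights and 0 to 5 with 1 array left out. Over all genes it was 7, and 55 with normexp, 3 with the array median, 0 with no filter, 47 with the all-array filter, 0 for RiboPure arrays, brightness, fixed slide and fixed scan day, 2 with the arrays of 2 doses, 4583 with array weights, 20 in the fit over probes, and 0 to 855 with 1 array left out. For 8 Gy against 2 Gy array weights gave 1 call in place of 0. Between kits the 492 calls were 99 with normexp, 233 with slide as a random block and 36 to 739 with 1 array left out.

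At 2 Gy the Itgam estimate of 0.07 was -0.10 with normexp, -0.034 with the array median, -0.046 and -0.038 with slide and scan day as random blocks, -0.073 as a mean over probes, -0.081 without 0 Gy replicate 4 and 2 Gy replicate 3, -0.13 with array weights, -0.50 and -0.49 with slide and scan day fixed, and -0.19 to 0.28 with 1 array left out. The Padi4 estimate of 0.33 was -0.11 with array weights and -0.53 with slide or scan day fixed. Between kits, leaving out 1 array gave -0.70 to 0.075 for Csf3r and -1.07 to 5.58e-05 for Fpr1.

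With the replicate number as a block, 2 of the 9 genes (Fpr1 and Fpr2) and 244 genes in all were called at 8 Gy, 242 of them also called without it, and 73 at 2 Gy. The 16 pairs of same-numbered arrays correlated at -0.345 to 0.482 and 8 of the 16 were over 0.1. Arrays of unlike number were not compared, so these values cannot decide whether the numbers pair the mice. The main model did not pair them. The fixed slide and scan day terms, the fit over probes and the list counts without single arrays were chosen after seeing the data. The well above background filter on all arrays left no value for Mmp25. The causes of these changes were not tested. The number of arrays and the dimness of Mmp25 limit the precision.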
